A study of Homo sapiens with 8 samples.

Results

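The mRNAs described here encode 9 enzymes of glycolysis and of the lactate step that follows it, namely ALDOA, TPI1, GAPDH, PGK1, PGAM1, ENO1, PKM, LDHA and LDHB. Crosslink sites were counted for each of them on the strand of the gene and split into 5′ UTR, coding sequence, 3′ UTR and intron, among 62738 genes in all, of which 14293 held a site. Of the 9 mRNAs, 8 carried sites and PGAM1 carried none in any library. The list was drawn up with the dyskerin and control results of these same libraries known, so levels in dyskerin against its control are given as a description and support nothing.

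The libraries came from U2OS cells, a human osteosarcoma line, and were made by iCLIP, in which ultraviolet light fixes proteins to the RNA they touch and reverse transcription stops next to the crosslinked base, so that each cDNA marks a contact at single-nucleotide resolution. The cells carried no other treatment in the labels, and only the nuclear fraction was used. Immunoprecipitation was done with an antibody against dyskerin (2 libraries), an antibody against GAR1 (2 libraries) or mouse IgG as the control, with 2 IgG libraries labelled for the dyskerin set and 2 for the GAR1 set. The dyskerin antibody was from mouse and the GAR1 antibody from rabbit, so the IgG was not matched in species to GAR1, which limits each comparison of GAR1 with its IgG. The labels number the replicates without saying whether they were separate cultures, and p-values measure only the spread between these libraries, which may be technical.

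Dyskerin is the catalytic subunit of the H/ACA ribonucleoprotein, which converts uridines to pseudouridines at sites usually chosen by a guide RNA, and GAR1 is another of its core proteins. Glycolysis splits glucose into pyruvate in the cytoplasm. Aldolase (ALDOA) and triosephosphate isomerase (TPI1) yield the triose phosphate, GAPDH oxidises it, phosphoglycerate kinase (PGK1) and pyruvate kinase (PKM) make ATP, phosphoglycerate mutase (PGAM1) and enolase (ENO1) rearrange the intermediates, and the subunits of lactate dehydrogenase (LDHA and LDHB) interconvert pyruvate and lactate. These mRNAs are among the abundant transcripts of proliferating human cells, and several of them have many processed pseudogenes in the genome.

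The strongest exonic contact found in both dyskerin libraries shows, for each mRNA, what a crosslinked sequence looked like. For each of the 8 mRNAs with sites, the exonic position with the most cDNAs over the dyskerin libraries, among positions called in both, is printed with 12 bases on either side as spliced mRNA on hg38, 5′ to 3′, with T for U and the crosslinked base in capitals.

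ENO1 (exon 5, coding, chr1:8868048, minus strand): aagaaactgaacGtcacagaacaag
PKM (exon 2, coding, chr15:72218968-72218992, minus strand): gattcaccacccAtcacagcccgga
GAPDH (exon 2, 5′ UTR, chr12:6534819, plus strand): cagccgagccacAtcgctcagacac
PGK1 (exon 4, coding, chrX:78114106-78114130, plus strand): cctccgctttcaTgtggaggaagaa
TPI1 (exon 4, coding, chr12:6869294-6869318, plus strand): ggactcggagtaAtcgcctgcattg
ALDOA (exon 3, coding, chr16:30067269-30067293, plus strand): tccagcactgacCccggagcagaag
LDHB (exon 4, coding, chr12:21643983-21644007, minus strand): gtcttcaaattcAttattcctcaga
LDHA (exon 2, coding, chr11:18396943-18396967, plus strand): cctgtgccatcaGtatcttaatgaa

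The ENO1 and GAPDH windows run across a splice junction, so only the crosslinked position is given for them. The ENO1 position held 15 and 27 cDNAs in dyskerin, 0 and 3 in GAR1, 2 and 0 in the dyskerin IgG and 0 in both libraries of the GAR1 IgG. The PKM position held 8 and 15 cDNAs and the GAPDH position 6 and 9 in the dyskerin libraries, and both were at 0 in the other 6 libraries. ENO1 thus had the tallest contact, the only one of these 8 positions with cDNAs outside the dyskerin libraries. The PGK1 and TPI1 positions summed to 5 cDNAs, those of ALDOA and LDHB to 4 and that of LDHA to 2 over both dyskerin libraries. In TPI1, ALDOA and LDHB, 3 positions shared the top value, of which the one nearest the start of the mRNA is printed. The crosslinked base was A at 4 of these positions, G at 2, C at 1 and T at 1.

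Depth differed strongly between libraries and sets what can be read from a count of 0. Over its significant sites, dyskerin replicate 1 held 1693951 cDNAs and replicate 2 held 1875459. The GAR1 replicates held 585454 and 1976518, while the IgG replicates of the dyskerin set held 146514 and 8183 and those of the GAR1 set 295255 and 10701. Levels are given as CPM, the cDNAs of a gene per 1000000 of these peak cDNAs. A single cDNA was worth 0.590 and 0.533 CPM in the dyskerin libraries, but 6.83 and 122 CPM in the dyskerin IgG libraries and 3.39 and 93.4 CPM in the GAR1 IgG libraries. All 9 mRNAs were at 0 in IgG replicate 2 of either set, where a count of 0 allows up to 367 CPM in the dyskerin IgG and 280 CPM in the GAR1 IgG, so that only PKM, in the second of these, had a mean dyskerin level above such a bound. Protein-coding genes took 66.3% and 64.7% of peak cDNAs in dyskerin, 2.44% and 3.25% in GAR1, 55.8% and 14.5% in the dyskerin IgG and 2.60% and 9.27% in the GAR1 IgG. Mesenchymal markers of the line were present in dyskerin (COL1A1 at 977 and 1741 cDNAs, VIM at 475 and 750), while of 7 epithelial, blood and liver markers, 6 were at 0 in both dyskerin libraries and KRT8 had 0 and 1 cDNA.

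The 9 mRNAs together held 1399 and 1845 cDNAs in dyskerin, 15 and 74 in GAR1, 38 and 0 in the dyskerin IgG and 13 and 0 in the GAR1 IgG. Scaled to peak cDNAs, this gave 826 and 984 CPM for dyskerin, 25.6 and 37.4 CPM for GAR1, 259 and 0 CPM for the dyskerin IgG and 44.03 and 0 CPM for the GAR1 IgG. Both dyskerin libraries lay above all 6 others, and the GAR1 libraries lay between their 2 IgG libraries. Of the dyskerin cDNAs, GAPDH, ENO1 and PKM supplied 2774 of 3244, or 85.5%. All 8 mRNAs with sites had both dyskerin libraries above both dyskerin IgG libraries, which 70.3% of the 6398 genes compared also had.

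**Figure D1:**
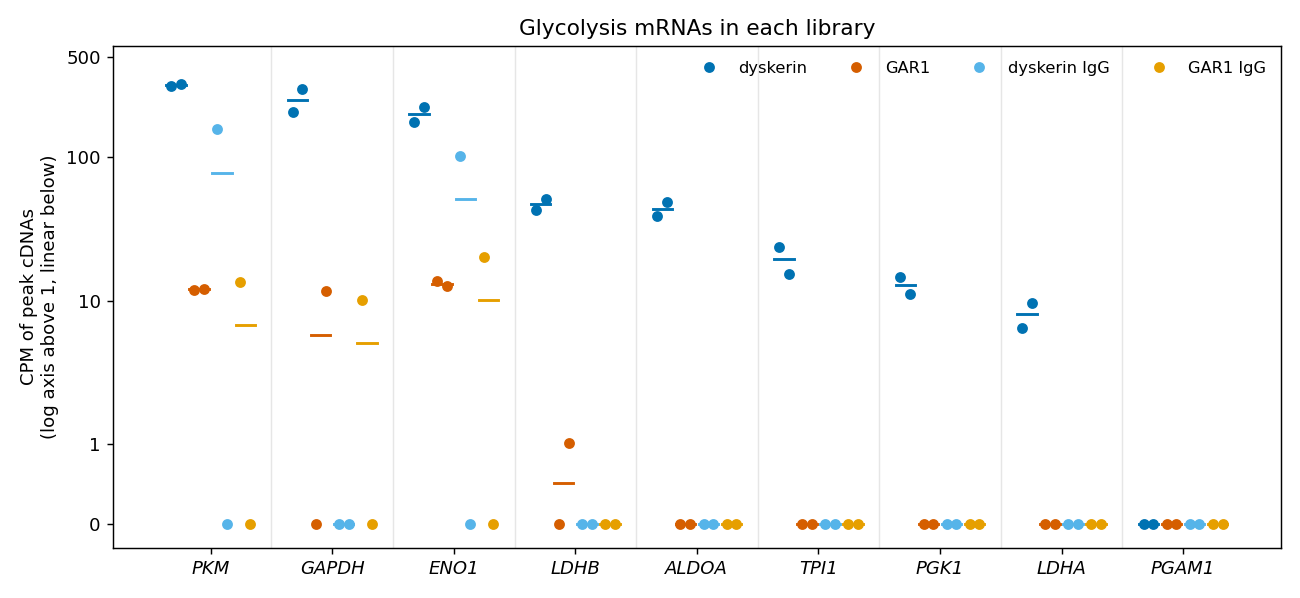
Level of each glycolysis mRNA in CPM of peak cDNAs (vertical axis, logarithmic above 1 and linear below) by group, with 1 point per library and a bar at the mean of the 2 libraries of a group. The dyskerin libraries held all mRNAs but PGAM1, whereas ALDOA, TPI1, PGK1 and LDHA were at 0 in the other 6 libraries.

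PKM (ENSG00000067225.21, chr15:72199029-72231819, minus strand), the pyruvate kinase that ends the pathway, had the most cDNAs. PKM held 534 and 608 cDNAs in dyskerin, 7 and 24 in GAR1, 23 and 0 in the dyskerin IgG and 4 and 0 in the GAR1 IgG. The level was 320 ± 6.33 CPM in dyskerin (SD, n = 2), 12.1 ± 0.132 CPM in GAR1, 78.5 ± 111 CPM in the dyskerin IgG and 6.77 ± 9.58 CPM in the GAR1 IgG. It ranked 411th of the 9934 protein-coding genes with dyskerin sites by mean CPM, without regard to length. The dyskerin replicates were close, while the control spread was as wide as its mean because a single library held all its cDNAs. Pooled over the libraries of a group, PKM was 2.15-fold higher in dyskerin than in its IgG (95% exact counting interval 1.43 to 3.41). Such intervals cover counting error only.

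GAPDH (ENSG00000111640.15, chr12:6534512-6538374, plus strand), which oxidises the triose phosphate, had the second most cDNAs. It held 350 and 559 cDNAs in dyskerin, 0 and 23 in GAR1, 0 in both dyskerin IgG libraries and 3 and 0 in the GAR1 IgG libraries. The level was 252 ± 64.7 CPM in dyskerin and 5.82 ± 8.23 CPM in GAR1 (SD, n = 2 each), against 0 in the dyskerin IgG and 5.08 ± 7.18 CPM in the GAR1 IgG. Replicate 1 of the dyskerin IgG held PKM and ENO1 at 157 and 102 CPM but no GAPDH, where a floor of 3 counts was worth 20.5 CPM. Against a floor of 3 counts over both control libraries, GAPDH was at least 13.1-fold higher in dyskerin per peak cDNA.

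ENO1 (ENSG00000074800.16, chr1:8861000-8879190, minus strand) encodes the enolase that makes phosphoenolpyruvate. It held 300 and 423 cDNAs in dyskerin, 8 and 25 in GAR1, 15 and 0 in the dyskerin IgG and 6 and 0 in the GAR1 IgG. The level was 201 ± 34.3 CPM in dyskerin, 13.2 ± 0.718 CPM in GAR1, 51.2 ± 72.4 CPM in the dyskerin IgG and 10.2 ± 14.4 CPM in the GAR1 IgG (SD, n = 2 each). The pooled ratio of dyskerin to its IgG was 2.09 (1.26 to 3.75). ENO1 and PKM were thus the only mRNAs of the 9 with cDNAs in the dyskerin IgG.

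The enzymes before GAPDH had fewer cDNAs. ALDOA (ENSG00000149925.22, chr16:30064164-30070457, plus strand) held 66 and 91 cDNAs in the dyskerin libraries, or 43.7 ± 6.76 CPM (SD, n = 2), and none in the other 6. TPI1 (ENSG00000111669.15, chr12:6867119-6870948, plus strand) held 40 and 29 cDNAs, or 19.5 ± 5.76 CPM, and none elsewhere. ALDOA sites overlapped a second, unnamed gene on the same strand, and the assignment to ALDOA followed the rule that named genes come first. Per peak cDNA, ALDOA was at least 2.27-fold higher in dyskerin than in its IgG, whereas TPI1 at 19.3 pooled CPM lay below the control floor of 19.4 CPM and has no fold.

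PGK1 and PGAM1, the neighbours of GAPDH in the pathway, had few cDNAs or none. PGK1 (ENSG00000102144.15, chrX:77910739-78129295, plus strand) held 25 and 21 cDNAs in the dyskerin libraries, or 13.0 ± 2.52 CPM (SD, n = 2), and none in the other 6, so that no fold against the control floor could be given. Sites where its annotated span overlaps ATP7A were counted with ATP7A. PGAM1 (ENSG00000171314.9, chr10:97426191-97433444, plus strand) held no cDNA in any library. A floor of 3 counts over both libraries of a group was 0.840 CPM in dyskerin, 1.17 CPM in GAR1, 19.4 CPM in the dyskerin IgG and 9.81 CPM in the GAR1 IgG. In dyskerin this floor lies under the level of the other 8 mRNAs, the lowest of which was LDHA.

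The lactate dehydrogenase subunits differed in their number of cDNAs. LDHB (ENSG00000111716.14, chr12:21635342-21757857, minus strand), the subunit known from heart, held 73 and 96 cDNAs in dyskerin and 0 and 2 in GAR1, with none in the 4 IgG libraries. LDHA (ENSG00000134333.15, chr11:18394560-18408425, plus strand), the subunit known from skeletal muscle, held 11 and 18 cDNAs in the dyskerin libraries and none in the other 6. In dyskerin this was 47.1 ± 5.72 CPM for LDHB and 8.05 ± 2.20 CPM for LDHA (SD, n = 2 each), and LDHB was at least 2.44-fold higher in dyskerin than in its IgG per peak cDNA. LDHB, like ALDOA, overlapped an unnamed gene on its strand. With only sites that overlap a single gene, the 9 mRNAs together were at 744 and 886 CPM in dyskerin, 25.6 and 36.4 CPM in GAR1, 259 and 0 CPM in the dyskerin IgG and 44.03 and 0 CPM in the GAR1 IgG.

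To compare the mRNAs with one another, exonic cDNAs were divided by the length of the canonical mRNA. In the dyskerin libraries the density was 142 and 170 CPM per kb for GAPDH (1285 nt), 124 and 126 CPM per kb for PKM (2305 nt), and 82.5 and 99.99 CPM per kb for ENO1 (1781 nt). It was 24.9 and 31.9 CPM per kb for LDHB, 16.9 and 18.5 CPM per kb for ALDOA, 11.4 and 9.08 CPM per kb for TPI1, 2.90 and 2.62 CPM per kb for LDHA and 1.84 and 2.33 CPM per kb for PGK1. By density GAPDH therefore came first and PKM second, the reverse of their order by total cDNAs, and no pair of neighbours in the order overlapped between replicates. The order of LDHA and PGK1 rests on 11 and 11 against 15 and 21 exonic cDNAs. The length used includes 3′ UTRs, where these mRNAs held few cDNAs. Over the canonical coding sequence, both dyskerin libraries pooled, GAPDH held 593 cDNAs on 1005 nt and PKM 958 on 1593 nt. LDHA held 22 on 996 nt and PGK1 36 on 1251 nt. By coding length, GAPDH thus no longer came before PKM in the pooled counts, nor LDHA before PGK1. By library, coding cDNAs over all protein-coding transcripts were 253 and 340 for GAPDH and 463 and 514 for PKM. Over these lengths PKM was denser in replicate 1 and GAPDH in replicate 2, so their order by coding length is not settled.

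Next, the position of the contacts along the genes was examined. Over the 9 mRNAs, 75.1% ± 3.70 (SD, n = 2) of dyskerin cDNAs lay in coding sequence, 9.19% ± 0.567 in 5′ UTRs, 0.636% ± 0.516 in 3′ UTRs and 15.1% ± 3.65 in introns. Over all protein-coding genes, 48.5% ± 8.43 lay in coding sequence, 1.76% ± 0.325 in 5′ UTRs, 1.83% ± 0.118 in 3′ UTRs and 47.9% ± 8.64 in introns. The glycolysis mRNAs were thus richer in exonic contacts than the protein-coding total. Gene by gene the contrast was smaller. Among 4579 protein-coding genes with at least 50 dyskerin cDNAs the median coding share was 71.8%, and the coding share of the 6 glycolysis mRNAs that reached 50 cDNAs was between 65.2% for GAPDH, above 44.9% of those genes, and 85.5% for PKM, above 67.9% of them.

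**Figure D2:**
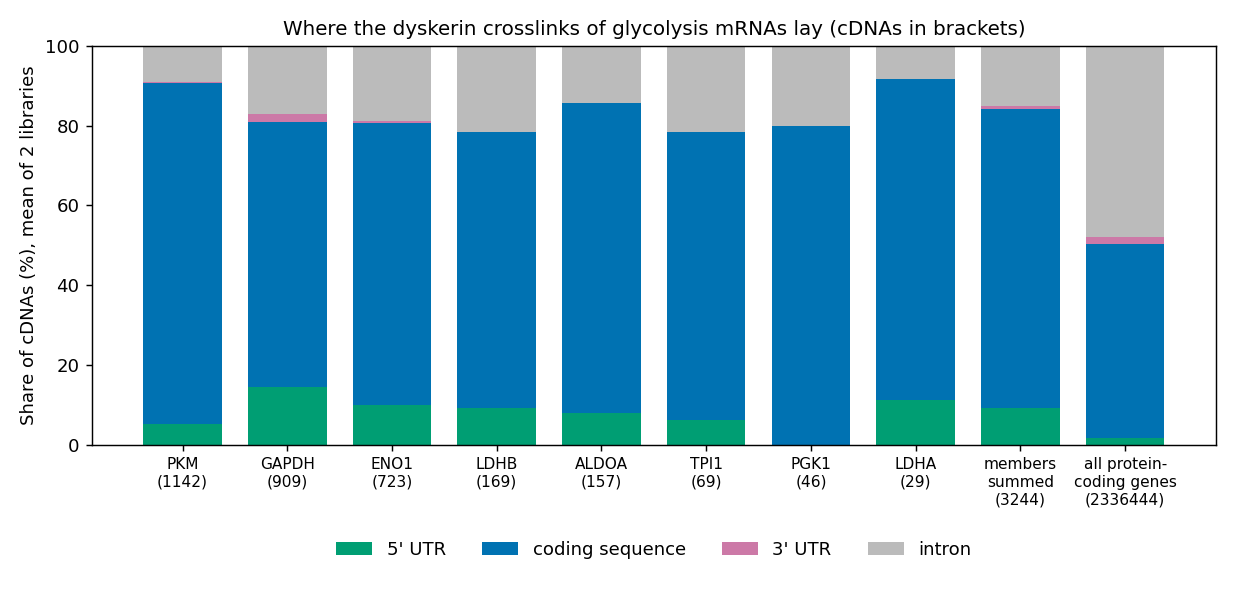
Share of dyskerin cDNAs (percent, mean of 2 libraries) in 5′ UTR, coding sequence, 3′ UTR and intron for the 8 glycolysis mRNAs with sites, for the 9 summed and for all protein-coding genes, with the number of cDNAs in brackets. Coding sequence held 75.1% of the summed cDNAs and 48.5% over all protein-coding genes.

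Per kb of annotated sequence, the coding sequences of the glycolysis mRNAs held 59.4 and 66.0 CPM per kb in the dyskerin libraries, against 7.92 and 9.88 CPM per kb over all protein-coding genes. Their 5′ UTRs held 9.51 and 12.4 CPM per kb, against 0.987 and 1.25 CPM per kb. Their 3′ UTRs held 1.04 and 0.335 CPM per kb, against 0.308 and 0.274 CPM per kb, and their introns 0.258 and 0.434 CPM per kb, against 0.282 and 0.213 CPM per kb. The density in coding sequence and 5′ UTRs was thus several times that over all protein-coding genes in both libraries. The density in 3′ UTRs was well above it in replicate 1 only, and that in introns was below it in replicate 1 and above it in replicate 2. The intron length used, 401 kb, includes the stretch of PGK1 that overlaps ATP7A, whose sites were counted with ATP7A. This lowers the intron density of the glycolysis mRNAs, so its place below the value over all protein-coding genes in replicate 1 is not settled. The values over all protein-coding genes include the length of genes without sites, as only 10815 of 20020 held a site in any library. The glycolysis mRNAs were chosen with their dyskerin results known, so their higher density is a description only.

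GAPDH had 133 cDNAs in its 5′ UTR, 593 in coding sequence, 13 in the 3′ UTR and 170 in introns over both dyskerin libraries. Its intronic cDNAs numbered 36 and 134 in the 2 libraries and its 3′ UTR cDNAs 13 and 0, so these parts differed between replicates more than the coding part at 253 and 340. ENO1 had 71 cDNAs in its 5′ UTR, 508 in coding sequence, 5 in the 3′ UTR and 139 in introns. PKM had 59 cDNAs in its 5′ UTR, 977 in coding sequence, 1 in the 3′ UTR and 105 in introns. The 3′ UTRs of the other 6 mRNAs held no dyskerin cDNA. PGK1 was also at 0 in its 5′ UTR, and its intronic cDNAs, 10 and 0, came from a single library. LDHA had 5′ UTR and intronic cDNAs in replicate 2 only, 4 and 3 of them.

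Outside the dyskerin libraries, contacts in these mRNAs were mostly coding as well. In GAR1, 69 of 89 cDNAs were coding, 10 lay in the 5′ UTR of GAPDH and 10 in introns of ENO1, all 20 non-coding cDNAs being from GAR1 replicate 2. In the dyskerin IgG all 38 cDNAs were coding, and in the GAR1 IgG 11 of 13 were. Over all protein-coding genes, the coding share was 14.1% ± 2.16 in GAR1, 33.1% ± 3.62 in the dyskerin IgG and 24.2% ± 14.6 in the GAR1 IgG (SD, n = 2 each).

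Along the coding sequence, the contacts were uneven. When the coding sequence was divided into 5 equal parts from the start codon, the dyskerin cDNAs of the 9 mRNAs fell 29.0% and 32.2% in part 1, 18.0% and 22.8% in part 2, 31.2% and 27.5% in part 3, 13.3% and 8.70% in part 4 and 8.47% and 8.77% in part 5. Over all protein-coding genes the shares were 20.2% and 21.9% in part 1 and 16.0% and 14.9% in part 5. ENO1 had 51.8% of its coding cDNAs in part 1 and PKM had 43.6% in part 3. GAPDH, by contrast, was nearly even over the first 3 parts, at 24.96%, 24.1% and 25.1%.

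**Figure D3:**
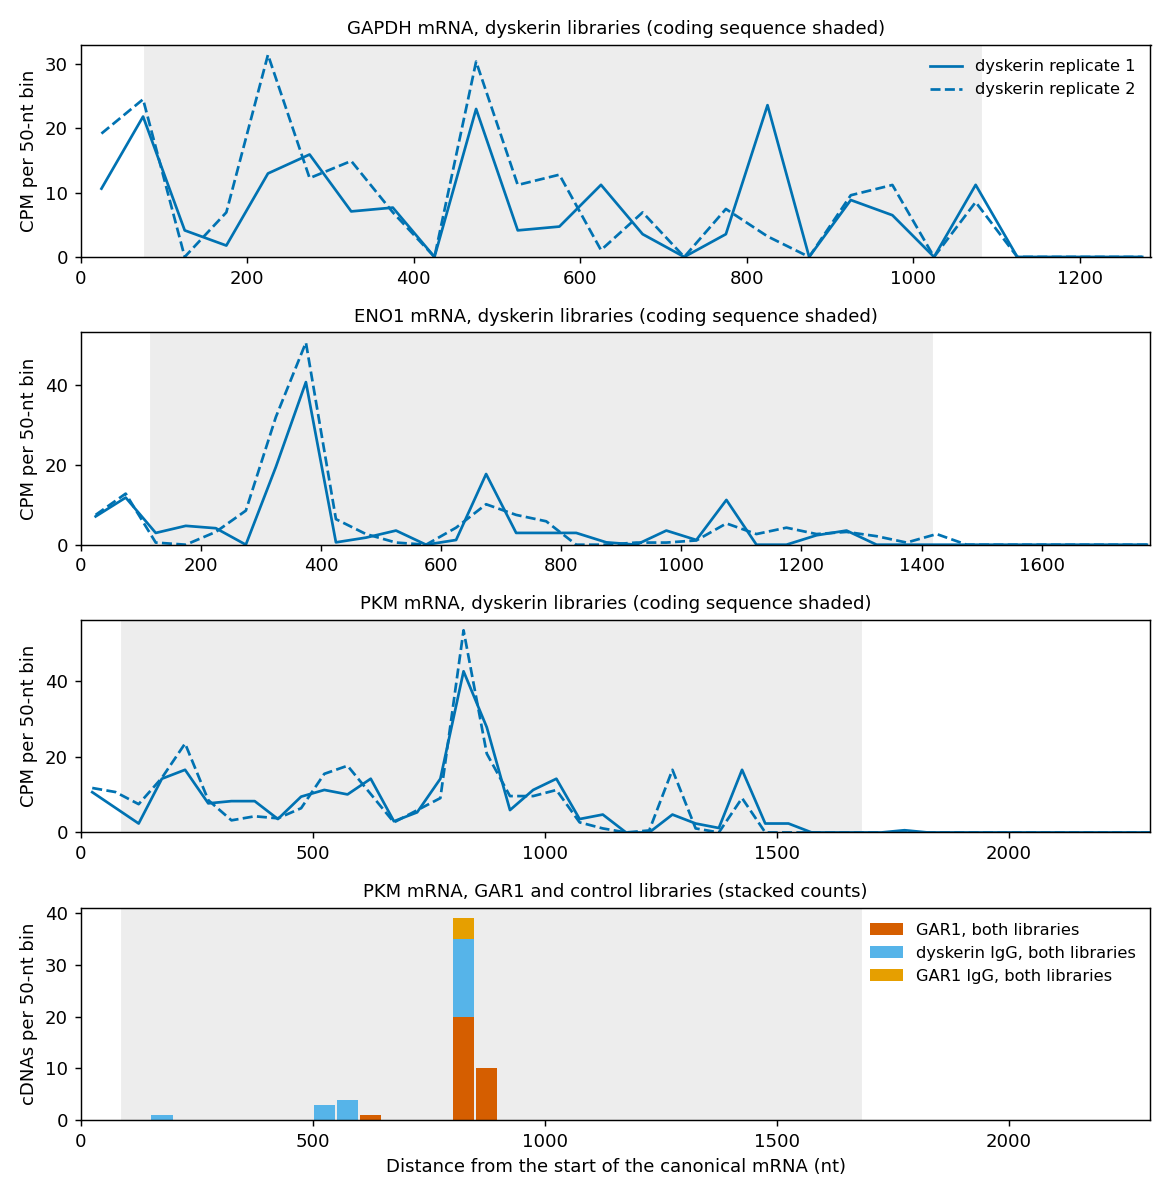
Crosslinks along the canonical mRNAs (horizontal axis, distance from the mRNA start in nt, coding sequence shaded). The first 3 panels give CPM per 50-nt bin in dyskerin replicate 1 (solid) and replicate 2 (dashed) for GAPDH, ENO1 and PKM, and the last gives stacked cDNA counts for PKM in the GAR1, dyskerin IgG and GAR1 IgG libraries. ENO1 and PKM each had a main peak at the same place in both dyskerin replicates, and most PKM cDNAs of the GAR1 and IgG libraries lay at the PKM peak, except for 8 of the 23 in the first dyskerin IgG library.

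In ENO1, exons 4 and 5, which make up 7.24% of the mRNA, held 45.8% of its exonic dyskerin cDNAs (267 of 583, Wilson 95% interval 41.8% to 49.9%). The cDNAs there numbered 103 and 164 in dyskerin, 8 and 15 in GAR1, 8 and 0 in the dyskerin IgG and 1 and 0 in the GAR1 IgG. All 23 exonic GAR1 cDNAs of ENO1 lay in these 2 exons, and 8 of 15 in the dyskerin IgG. In CPM, exons 4 and 5 were at 60.8 and 87.4 in dyskerin and at 13.7 and 7.59 in GAR1, against 54.6 and 0 in the dyskerin IgG and 3.39 and 0 in the GAR1 IgG. The first dyskerin IgG library thus came close to the lower dyskerin library at this place.

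In PKM, exon 6, at 11.8% of the mRNA, held 33.7% of exonic dyskerin cDNAs (346 of 1027, 30.9% to 36.6%). Within it, the strongest position lay at chr15:72208709 on the minus strand, with 13 and 8 cDNAs in the dyskerin libraries, 0 and 2 in GAR1, 0 in both dyskerin IgG libraries and 1 and 0 in the GAR1 IgG. Its surroundings are shown because most PKM cDNAs of the GAR1 and IgG libraries fell within 30 nt of it.

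PKM (exon 6, coding, chr15:72208697-72208721, minus strand): cgcaaggcatctGatgtccatgaag

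The 61 nt centred on this position held 91 and 116 cDNAs in dyskerin, 6 and 23 in GAR1, 15 and 0 in the dyskerin IgG and 4 and 0 in the GAR1 IgG. These were 207 of the 1142 PKM cDNAs in dyskerin, but 29 of 31 in GAR1, 15 of 23 in the dyskerin IgG and 4 of 4 in the GAR1 IgG. In CPM this stretch was at 53.7 and 61.9 in dyskerin and 10.2 and 11.6 in GAR1, against 102 and 0 in the dyskerin IgG and 13.5 and 0 in the GAR1 IgG. The first dyskerin IgG library therefore lay above both dyskerin libraries at this place, and the first GAR1 IgG library above both GAR1 libraries. Outside the stretch, PKM was at 262 and 262 CPM in dyskerin and 1.71 and 0.506 CPM in GAR1, against 54.6 and 0 CPM in the dyskerin IgG and 0 in both GAR1 IgG libraries. The exons of ENO1 and PKM described here and the 61-nt stretch were chosen after their values were seen and were given no test. The antibody and the IgG thus shared places on these mRNAs, and whether that reflects a common background was not tested.

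GAPDH had no comparable single peak. Its densest exons in dyskerin were exon 4 at 320 and 523 CPM per kb, exon 2 at 420.0 and 420.4 CPM per kb and exon 1 at 278 and 412 CPM per kb, and these 3 exons held 42.7% of exonic dyskerin cDNAs in 16.5% of the mRNA. In the GAR1 libraries 10 of 21 exonic GAPDH cDNAs lay there. The last exon of each of the 3 leading mRNAs was sparse, with 36.4 CPM per kb in GAPDH, 3.10 in ENO1 and 0.405 in PKM on average over the dyskerin libraries.

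PKM is spliced with either of a pair of mutually exclusive exons of 167 nt, which give the PKM1 and PKM2 isoforms, PKM2 being the form known from proliferating cells. The PKM2 exon (chr15:72202454-72202620, minus strand, exon 9 of the canonical transcript) held 13 and 34 cDNAs in the dyskerin libraries. The PKM1 exon (chr15:72203022-72203188) held 7 and 0. Neither exon held a cDNA in the other 6 libraries. Both dyskerin libraries thus had more cDNAs on the PKM2 exon, by 6 in replicate 1 and by 34 in replicate 2.

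The replicates shared part of their positions. In dyskerin replicate 1 the 9 mRNAs had 868 crosslinked positions and in replicate 2 they had 1077, and 329 positions were called in both, or 37.9% of those in replicate 1 and 30.5% of those in replicate 2. The shared positions held 48.0% and 42.9% of the cDNAs. Over all protein-coding genes, shared positions were 27.5% and 26.4%. Most sites were small, since 65.2% of dyskerin sites in these mRNAs held a single cDNA and the largest held 27. Of the 68 positions with GAR1 cDNAs, 53 also held dyskerin cDNAs, as did 28 of 32 positions of the dyskerin IgG and 7 of 9 of the GAR1 IgG, or 77.9%, 87.5% and 77.8%. Over all protein-coding genes these shares were 35.7%, 66.4% and 37.3%, and how far they follow the density of dyskerin positions was not tested.

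At coding sites of these mRNAs the crosslinked base was U in 26.8% (Wilson 95% interval 23.5% to 30.3%) and 25.7% (22.7% to 29.0%) of positions in the dyskerin libraries. Over all coding sites it was U in 29.7% of positions in both libraries, which lay inside the interval of replicate 1 and outside that of replicate 2. The coding sequence of the 8 mRNAs with sites was 22.6% U and 28.4% G, and G made up 21.7% and 22.7% of their crosslinked positions. The crosslinked base is where the protein touched the RNA and need not be a modified base.

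To ask whether the H/ACA proteins differed on these mRNAs, dyskerin was compared with GAR1. GAR1 held cDNAs on 4 of the 9 mRNAs, PKM, ENO1, GAPDH and LDHB, and was at 0 on ALDOA, TPI1, PGK1, LDHA and PGAM1. Per peak cDNA, the pooled ratio of dyskerin to GAR1 was 26.4 for PKM (18.5 to 39.1), 28.4 for GAPDH (18.8 to 44.98), 15.7 for ENO1 (11.1 to 23.02) and 60.7 for LDHB (16.5 to 505), and at least 37.6 for ALDOA, 16.5 for TPI1, 11.01 for PGK1 and 6.94 for LDHA. All 8 mRNAs with sites had both dyskerin libraries above both GAR1 libraries in CPM, which 91.4% of genes compared also had. Per 1000000 cDNAs in protein-coding genes, the difference in the summed level was far smaller. On that scale the 9 mRNAs together held 1245 and 1521 in dyskerin, 1049 and 1152 in GAR1, 465 and 0 in the dyskerin IgG and 1692 and 0 in the GAR1 IgG. The pooled ratio of dyskerin to GAR1 was then 1.23 for the sum, 1.33 for GAPDH, 1.24 for PKM, 0.737 for ENO1, 2.84 for LDHB with 2 cDNAs in GAR1, and at least 1.76 for ALDOA. TPI1, PGK1 and LDHA lay below the GAR1 floor on that scale and have no fold. The gap per peak cDNA thus went with the share of protein-coding genes in each library, 66.3% and 64.7% in dyskerin against 2.44% and 3.25% in GAR1.

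**Figure D4:**
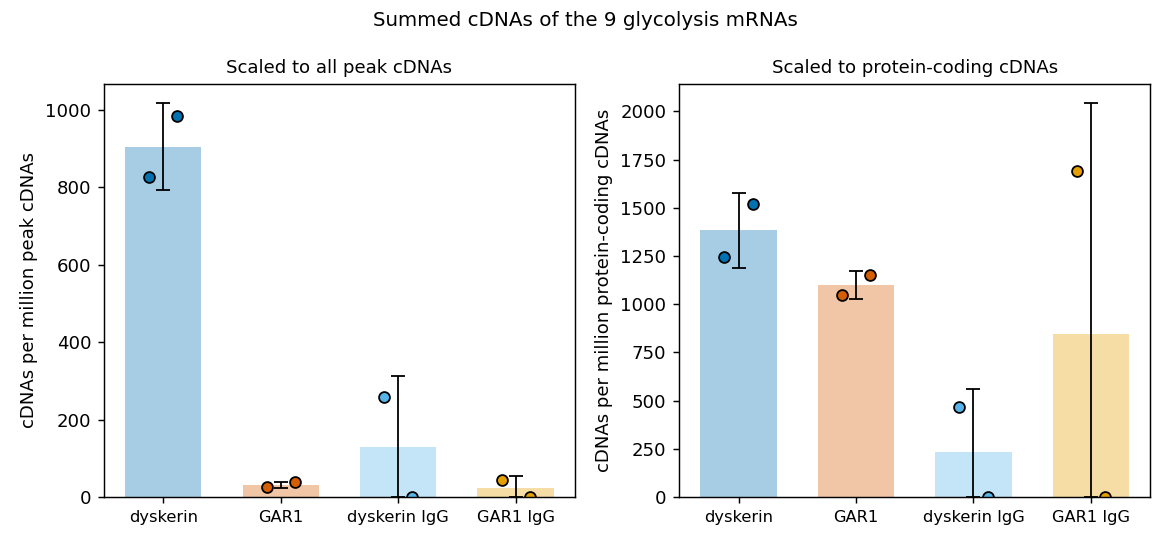
Summed cDNAs of the 9 glycolysis mRNAs in each group, per 1000000 peak cDNAs (left) and per 1000000 protein-coding cDNAs (right). Bars are means of 2 libraries, points are libraries and whiskers are 1 SD, drawn no lower than 0, and the dyskerin mean was 905 against 31.5 in GAR1 on the left scale but 1383 against 1100 on the right.

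In the edgeR fit over 6405 genes, with TMM scaling and Benjamini-Hochberg adjustment, 52.1% of genes passed an adjusted p of 0.05 in dyskerin against GAR1, with 47.6% higher and 4.5% lower in dyskerin. Of the 8 glycolysis mRNAs that reached 10 counts in 2 libraries, 3 passed as higher and 0 as lower, a share that did not exceed that background. All but PKM and ENO1, 6 of the 8, reached this minimum only through the dyskerin libraries and so had to lean towards dyskerin, and the counts and medians over the 8 are given as a description. The 3 that passed were ALDOA, TPI1 and PGK1, each with an edgeR adjusted p of 0.041. All 3 were among the 6 that reached the minimum only through dyskerin, so their direction and p are a description as well. Each was at 0 in GAR1, so its fitted fold change depends on a prior count, and on the TMM scale the bounds were at least 3.74-fold for ALDOA, 1.64-fold for TPI1 and 1.09-fold for PGK1. PKM (log2 fold change 1.17, adjusted p = 0.71), GAPDH (1.14, adjusted p = 0.698), ENO1 (0.42, adjusted p = 0.892), LDHB (2.45, adjusted p = 0.165) and LDHA (adjusted p = 0.0771) did not pass. The median fitted log2 fold change over all genes tested was 5.55, and that of the 8 mRNAs was 3.80. With the 4 mRNAs at 0 in GAR1 set to their bounds, the median of the 8 was 0.93. Other genes at 0 in GAR1 were not set to bounds, so 0.93 cannot be set against 5.55. The 3 calls did not hold without either GAR1 library, where 290 genes passed without replicate 1 (0 higher and 290 lower in dyskerin) and 59 without replicate 2 (1 higher and 58 lower), in place of 3337 (3049 higher and 288 lower). Scaling to total peak cDNAs called all 8 mRNAs, along with 5961 of the 6405 genes, and DESeq2 called ALDOA, GAPDH, ENO1, PKM and LDHB, along with 3588 genes, all higher in dyskerin.

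GAR1 was next compared with its own IgG. PKM, GAPDH and ENO1 had cDNAs in both groups, and their pooled ratios of GAR1 to its IgG were 0.926 (0.327 to 3.61), 0.916 (0.277 to 4.76) and 0.657 (0.272 to 1.92). These intervals include 1, and the control counts behind them were 4, 3 and 6 cDNAs. LDHB was below the floor, and the other 5 mRNAs were at 0 in both. No mRNA of the 9 had both GAR1 libraries above both of its IgG libraries, as 10.5% of genes had. In the edgeR fit none of the 8 mRNAs tested passed, and 0% of the 6405 genes did, while an unadjusted p under 0.05 was reached by 951 genes higher in GAR1 and 9 lower. DESeq2 called 85 genes in this comparison, 73 higher and 12 lower in GAR1, and none of the 8. In dyskerin against its IgG, edgeR and DESeq2 also called 0 of 6405 genes (0%), while edgeR gave an unadjusted p under 0.05 for 1475 genes higher in dyskerin and 7 lower, and the adjusted p of the 8 mRNAs was between 0.214 and 0.862. A test of whether the excess over IgG differed between dyskerin and GAR1 passed for none of the 8 and for 0 of all 6405 genes, so it says nothing particular to these mRNAs.

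The site counting of the authors allowed reads with up to 50 alignments, so copies of these mRNAs elsewhere in the genome may bear on their counts. Whether such a read was counted at every alignment or at a single one is not stated. At each mRNA position the next 30 nt were searched for exact copies elsewhere in the genome. The share of positions with a copy was 93.1% for PGAM1, 61.3% for TPI1 and 60.4% for GAPDH, and 35.7% for LDHA, 21.3% for PKM, 20.6% for PGK1, 15.4% for ENO1, 12.8% for LDHB and 6.65% for ALDOA. PGAM1, the mRNA at 0 everywhere, thus had the largest share of positions with a copy. Whether the copies account for its lack of cDNAs was not tested. Over the 9 mRNAs, dyskerin cDNAs numbered 1993 at 12235 positions with a single match and 680 at 6015 positions with a copy, or 16.3 and 11.3 per 100 positions. PGAM1 supplied 1650 of the positions with a copy and no cDNA, which lowers the second value. In GAPDH, 365 cDNAs lay at 497 positions with a single match and 354 at 758 positions with a copy. PKM, TPI1, LDHA and PGK1 were likewise sparser at positions with a copy. ENO1 (42.8 against 31.6 per 100 positions), LDHB (12.9 against 10.1) and ALDOA (11.2 against 6.12) were denser there. With only exonic sites of a single match, the 9 mRNAs still held 561 and 590 CPM in dyskerin and 22.2 and 22.3 CPM in GAR1, against 157 and 0 CPM in the dyskerin IgG and 23.7 and 0 CPM in the GAR1 IgG.

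**Figure D5:**
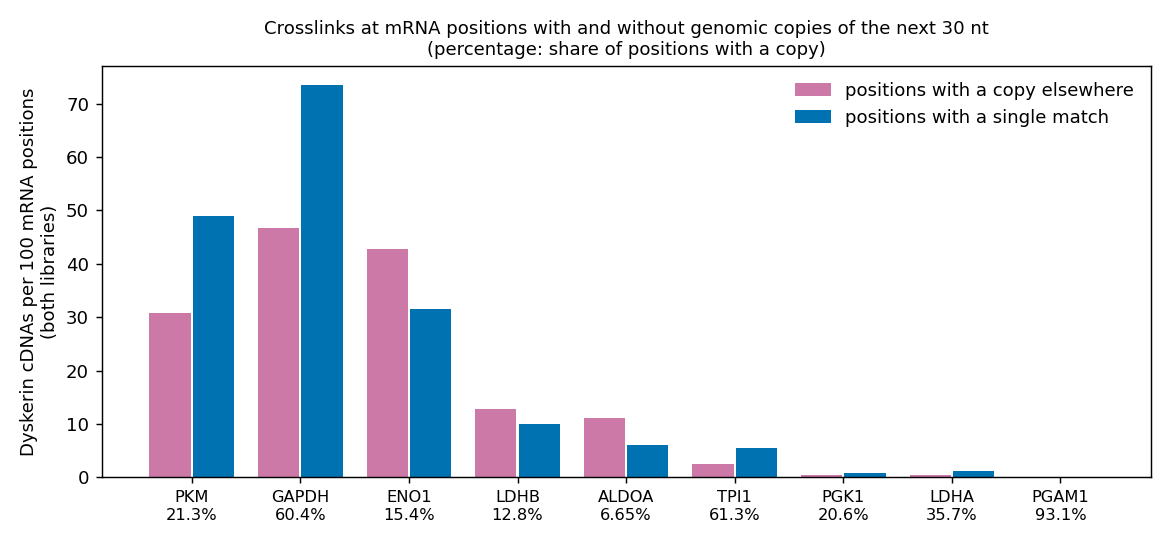
Dyskerin cDNAs per 100 mRNA positions (both libraries) at positions whose next 30 nt occur elsewhere in the genome and at positions with a single match, for each glycolysis mRNA, with the share of positions with a copy under its name. Density at single-match positions was 73.4 for GAPDH and 49.1 for PKM, and PGAM1 had no cDNA at either kind.

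Pseudogenes named after these 9 genes numbered 104 in the annotation, of which 7 held sites. They summed to 60 and 18 cDNAs in the dyskerin libraries, 0 in both GAR1 libraries, 3 and 0 in the dyskerin IgG libraries and 0 in the GAR1 IgG libraries. The leading ones were GAPDHP43 with 22 and 11 and PGAM1P10 with 21 and 3 dyskerin cDNAs, and PGAM1P10 also held the 3 control cDNAs. Copies of PGAM1 thus held cDNAs where PGAM1 did not.

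Other enzymes of the pathway were looked up as a list of 21 genes, chosen, like the 9, with results of these data known. Of these, 11 had dyskerin sites, 7 of them in both libraries, with 922 cDNAs in all, and 75.9% of those were coding. The leading ones were the phosphofructokinase subunits PFKL (105 and 175 cDNAs, 77.7 ± 22.2 CPM) and PFKP (95 and 150, 68.0 ± 16.9 CPM), the neuronal enolase ENO2 (85 and 80, 46.4 ± 5.32 CPM), the phosphofructokinase subunit PFKM (39 and 54, 25.9 ± 4.08 CPM) and hexokinase HK1 (30 and 34, 17.9 ± 0.296 CPM; SD, n = 2 each). Of 6 tested, 3 passed as higher in dyskerin than in GAR1, near the 47.6% of all genes tested, and none in either comparison with IgG, where 0% of all genes did.

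Of 9 glucose and lactate transporters and regulators of glycolysis, 6 had dyskerin sites, and 1 of 3 tested passed as higher in dyskerin than in GAR1, against the same 47.6%. TIGAR, a fructose bisphosphatase that lowers glycolytic flux, held 1004 and 531 cDNAs in the dyskerin libraries, 0 and 3 in GAR1, 144 and 0 in the dyskerin IgG and 0 in the GAR1 IgG, and 98.8% of its dyskerin cDNAs were intronic. In CPM the first dyskerin IgG library, at 983, lay above both dyskerin libraries, at 593 and 283. PFKFB3, which makes an activator of phosphofructokinase, held 67 and 100 dyskerin cDNAs, 70.7% of them intronic. The lactate transporter SLC16A1 held 29 and 56, and the glucose transporters SLC2A1 and SLC2A3 held 30 and 7 in replicate 2 only. The regulators TIGAR and PFKFB3 thus differed from the enzymes in having most contacts in introns.

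The genes whose levels over the 8 libraries were most like the mean of the 9 mRNAs, by Euclidean distance of log2(CPM + 1), were RCN1 (2.16), RPL10A and HCFC1 (2.17 each), RBMX (2.18) and NAA16 (2.20). RCN1 was at 44.9 and 42.1 CPM in dyskerin, 0 and 1.52 CPM in GAR1, 6.83 and 0 CPM in the dyskerin IgG and 0 in the GAR1 IgG. The measure is dominated by the dyskerin libraries and by zeros in the rest.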

How the data were processed

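Nuclear RNA of U2OS cells was profiled by iCLIP in 8 libraries, 2 in each of 4 groups. The authors, per their methods and the processing notes of the submission, used FastQC 0.11.9, Cutadapt, STAR 2.7.0e on GRCh38 (hg38) and iCount. The latter counted cDNAs with a limit of 50 alignments per read. It called significant sites separately in each library (3 nt flanks, 100 permutations, false discovery rate 0.05). The deposited values are counts of cDNAs per significant site that the authors did not normalize, so a gene's sum is the part that passed the call and not sequencing depth.

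Sites were assigned by strand to GENCODE 44, short non-coding RNAs first, then exons, then introns, with 38 RefSeq snoRNAs and scaRNAs added and a 5 nt upstream margin for short RNAs. Within a tier, protein-coding and named genes came first. Regions were taken over all protein-coding transcripts (coding sequence, 5′ UTR, 3′ UTR, intron, in this order). Coordinates count from 1. The named genes were the 9 members, the leading 5 of each list and the 5 most similar genes. Members, lists, the RefSeq addition and the margin were chosen with earlier results of these data known.

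Genes that reached 10 counts in 2 or more libraries entered the quasi-likelihood F test of edgeR 4.0.16 in R 4.3.3 (two-sided, TMM scaling, a single model of the 4 groups with 4 residual degrees of freedom). The TMM factor was 1.39 in each dyskerin library, 0.368 and 0.0702 in GAR1, 1.11 and 3.83 in the dyskerin IgG and 1.55 and 3.05 in the GAR1 IgG. The fit of dyskerin against GAR1 was also run on simulated data of 5029 genes. There all libraries shared each gene's mean over the real libraries, and set genes were raised in dyskerin. It called 57.7% of genes changed by a log2 of 2, 100% of those changed by 4 and 0.248% of the unchanged. The simulation left out the differences in composition that the TMM factors above scale for, so these rates need not hold for the real fit. Bounds against a group at 0 use a floor of 3 counts over the group. The alternatives were DESeq2 1.42.0, scaling to total peak cDNAs or to protein-coding cDNAs, no filter, sites of at least 3 cDNAs, sites counted once, single-match sites, a replicate block and leaving out each library. Clusters of sites were not used.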

Additional observations from a re-analysis of the deposited data

How the results depend on the processing

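In dyskerin against its IgG, the number of genes called was 0, and became 2 with no filter on low counts and 3 with only sites of at least 3 cDNAs. All of these calls were lower in dyskerin than in its IgG. In GAR1 against its IgG it was 0, and became 2 with scaling to total peak cDNAs, 33 with no filter, 85 with DESeq2 and 0 to 799 without 1 library, the 799 being without GAR1 replicate 1. In dyskerin against GAR1 it was 3337 (3049 higher and 288 lower in dyskerin), and became 5961 with scaling to total peak cDNAs (5786 higher), 474 with no filter (0 higher) and 59 to 611 without 1 library. With the replicate number as a block it was 20 (0 higher). Most calls were thus lower in dyskerin with no filter, with the block and without either GAR1 replicate, and higher under the other alternatives. Deviations of libraries with the same number correlated at r = 0.095, -0.02 and 0.117 in the 3 comparisons, so the numbers were not shown to pair the libraries. Where a library was left out, the lone library was assumed to vary like the other groups. The calls of ALDOA, TPI1 and PGK1 in dyskerin against GAR1 were lost with no filter, with the block and without either GAR1 replicate, that of TPI1 also with DESeq2, which gave PGK1 and LDHA no adjusted p, and without a dyskerin replicate these mRNAs were not tested.

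The summed level of the 9 mRNAs was 1383 per 1000000 protein-coding cDNAs in dyskerin, 1100 in GAR1 and 846 in the GAR1 IgG. With each site counted once it was 1063, 805 and 299 CPM, with only sites of at least 3 cDNAs 325 CPM in dyskerin and 1.52 CPM in GAR1, and with single-match exonic sites 576 and 22.2 CPM. The coding share in dyskerin became 82.8% with sites of at least 3 cDNAs and 85.7% with single-match sites, and that in the GAR1 IgG became 100% with single-match sites.

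Signs turned in GAR1 against its IgG. ENO1 went to a log2 fold change of -0.49 with total scaling and -0.84 with DESeq2, GAPDH to -0.47 with total scaling, -1.51 with DESeq2 and -5.45 without GAR1 replicate 2 (-5.45 to 9.02 without 1 library), LDHB to -3.52 with DESeq2, and PKM to -0.0281 with total scaling and -0.60 with DESeq2. In dyskerin against GAR1, ENO1 went to -0.32 without GAR1 replicate 1 (-0.32 to 2.11 without 1 library). The cause was not tested. In dyskerin against GAR1, DESeq2 also gained calls of PKM (6.83, adjusted p = 0.0029), ENO1 (6.02, adjusted p = 0.00491), GAPDH (7.54, adjusted p = 0.0127) and LDHB (8.32, adjusted p = 0.0299), total scaling gained those of the 5 mRNAs that had not passed, and sites of at least 3 cDNAs those of PKM, ENO1 and GAPDH. Of all alternatives for single mRNAs, 111 kept direction and call, 12 gained a call, 13 lost a call, 2 had a log2 fold change of 0 and 9 turned. A single cDNA was worth 122 and 93.4 CPM in replicate 2 of the dyskerin IgG and the GAR1 IgG, which limits every level set against them.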
